A study of Mus musculus with 2 samples.

Results

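The nuclear genes for the subunits of oxidative phosphorylation were examined in mouse hematopoietic stem cells (HSCs), the rare marrow cells that renew themselves and form all blood lineages. Members were all gene symbols of the count files that match the name patterns of the Nduf, Sdh, Uqcr, Cox4 to Cox8 and Atp5 series. The rule used names only and took 84 of 24421 symbols. By complex, 35 belonged to complex I, 4 to complex II, 8 to complex III, 20 to complex IV and 17 to complex V. Ndufa4 and Ndufa4l2 carry complex I names but were placed in complex IV, where the Ndufa4 protein is known to reside. Of the 84 symbols, 80 are structural subunits or their tissue isoforms. The other 4 are Cox7a2l, Ndufa4l2, Atp5s and Atp5sl, which the name rule takes but which are not counted here as structural subunits.

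Oxidative phosphorylation couples the oxidation of NADH and succinate to ATP synthesis in the inner mitochondrial membrane. Complexes I and II pass electrons to ubiquinone, complex III passes them to cytochrome c and complex IV to oxygen, while complexes I, III and IV pump protons that drive the rotary ATP synthase, complex V. Core subunits carry the cofactors and catalytic sites, and supernumerary subunits surround them and are needed mainly for assembly and stability. Quiescent HSCs are known for low mitochondrial respiration and a leaning on glycolysis, and differentiation raises respiratory demand. Part of the core of complexes I, III, IV and V is encoded in mitochondrial DNA. The mitochondrially encoded genes were not analysed here.

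RNA of 2 libraries was counted, 1 per group. The WT group was Ezh2 +/+ CreERT+/- and the other group, labelled Ezh2 KO, was Ezh2 Δ/Δ CreERT+/-. Both were of the C57BL/6 strain, and by these genotypes both carried the tamoxifen-inducible Cre. CD45.2 marrow of each genotype had been transplanted into CD45.1 hosts given lethal irradiation, and deletion was induced with 100 µl of 10 mg/ml tamoxifen daily over 5 days. The HSCs, CD150+CD48-CD34-Flt3- cells of the lineage-negative Sca-1+ c-kit+ compartment, were sorted 1 month later. The promoter of the Cre transgene, the age and the number of animals behind each library were not given in the sources used here. Only the transplanted marrow is described with these genotypes. Among donor-derived cells, recombination was not limited to HSCs by the way tamoxifen was given. Ezh2 encodes the histone H3K27 methyltransferase of Polycomb repressive complex 2. The comparison asks how transcripts of the respiratory subunits differ between the 2 libraries.

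Values are given in pairs, WT first and the library labelled Ezh2 KO second. The sums over genes were 5763118 and 4157280 counts, and 3 counts, the floor used here, equalled 0.521 and 0.722 CPM, a count scaled by the gene sum of its library. Ezh2 itself had 166 and 129 counts, or 142.5 and 150.3 once normalised, and its log2 ratio was 0.08 (95% interval -0.27 to 0.42). Ezh2 did not show the label's loss at the level of the whole gene, and counts per gene cannot show the loss of single exons, so the sample is called the library labelled Ezh2 KO throughout. Xist had 801 and 4 counts, while the Y-linked Ddx3y had 0 and 275, so donor sex cannot be told apart from the label. All 9 HSC marker genes checked were present in both libraries, with a median log2 ratio of -0.02. Of them, 2 had an interval above 0 and 2 below, near the 19.2% and 20.8% of all genes of at least 1 CPM. Slamf1, the gene of the sort marker CD150, had 446.2 and 289.0 normalised counts (-0.62, -0.85 to -0.41) and Fgd5 523.5 and 348.4 (-0.59, -0.79 to -0.39), both at least 1.5-fold lower. Ly6a was higher (0.32, 0.23 to 0.41). Of the markers that the sort selects against, Cd48 was near background at 12 and 11 counts, Cd34 had 821.2 and 966.0 normalised counts, and Flt3 had 84.1 and 163.1. Genes of other blood cells also differed. The 9 neutrophil genes summed to 10272 and 18876 normalised counts, and 7 of 9 had an interval above 0, beside 19.2% of all genes of at least 1 CPM. The primary granule genes among them went both ways. Mpo was higher at 1540 and 1790 (0.22, 0.12 to 0.32), Elane lower at 738.0 and 435.8 (-0.76, -0.94 to -0.58), and Prtn3 had a ratio of -0.07. The 4 eosinophil genes were all at 0 in WT and summed to 3723, the 7 erythroid genes summed to 8716 and 10899 with Hba-a1 and Hbb-bs at 0 in both, and the 6 B lymphoid genes summed to 24.0 and 195.8. The 5 monocyte genes summed to 228.3 and 217.9, and the 4 megakaryocyte genes to 2580 and 1210. The part of these cells in the subunit ratios was not tested, and in bulk RNA fewer cells of a type and less RNA per cell cannot be told apart.

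With 1 library per group there is no replicate spread and no test of the conditions. Each ratio below is the library labelled Ezh2 KO over WT, as log2 of the normalised count plus 1, and each interval is an exact 95% Clopper-Pearson interval of the 2 raw counts. Such intervals cover counting error only, and PCR copies without molecular identifiers are not independent molecules. A gene is described as higher or lower in these 2 libraries where its interval lies above or below 0.

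Respiratory subunit transcripts were abundant in both libraries and close to equal. The 84 members took 1.19% and 1.26% of all gene counts. A mean of at least 1 CPM was reached by 77 members, including 74 whose normalised counts averaged 100 or more. Their median log2 ratio was 0.12, beside -0.003 over all 12588 genes of at least 1 CPM. The interval lay above 0 for 34 of the 77 and below 0 for 6, beside 19.2% and 20.8% of all genes tested, and it spanned 0 for 37. The ratio itself was above 0 for 60 of 77 members (49.6% of all genes). None of the 77 was at least 1.5-fold higher, against 10.5% of all genes, and 2 were at least 1.5-fold lower, against 10.0%. Members were also less spread than genes at large, with an interquartile range of log2 ratios of 0.22 against 0.51. High counts narrow the ratios, so the same was read among genes of at least 10 CPM. There the 76 members included 34 above 0 (19.6% of all 9670 genes) and 6 below (23.4%), 0 at least 1.5-fold higher (4.58%) and 1 lower (5.87%), and the range over all genes was 0.42.

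**Figure D1:**
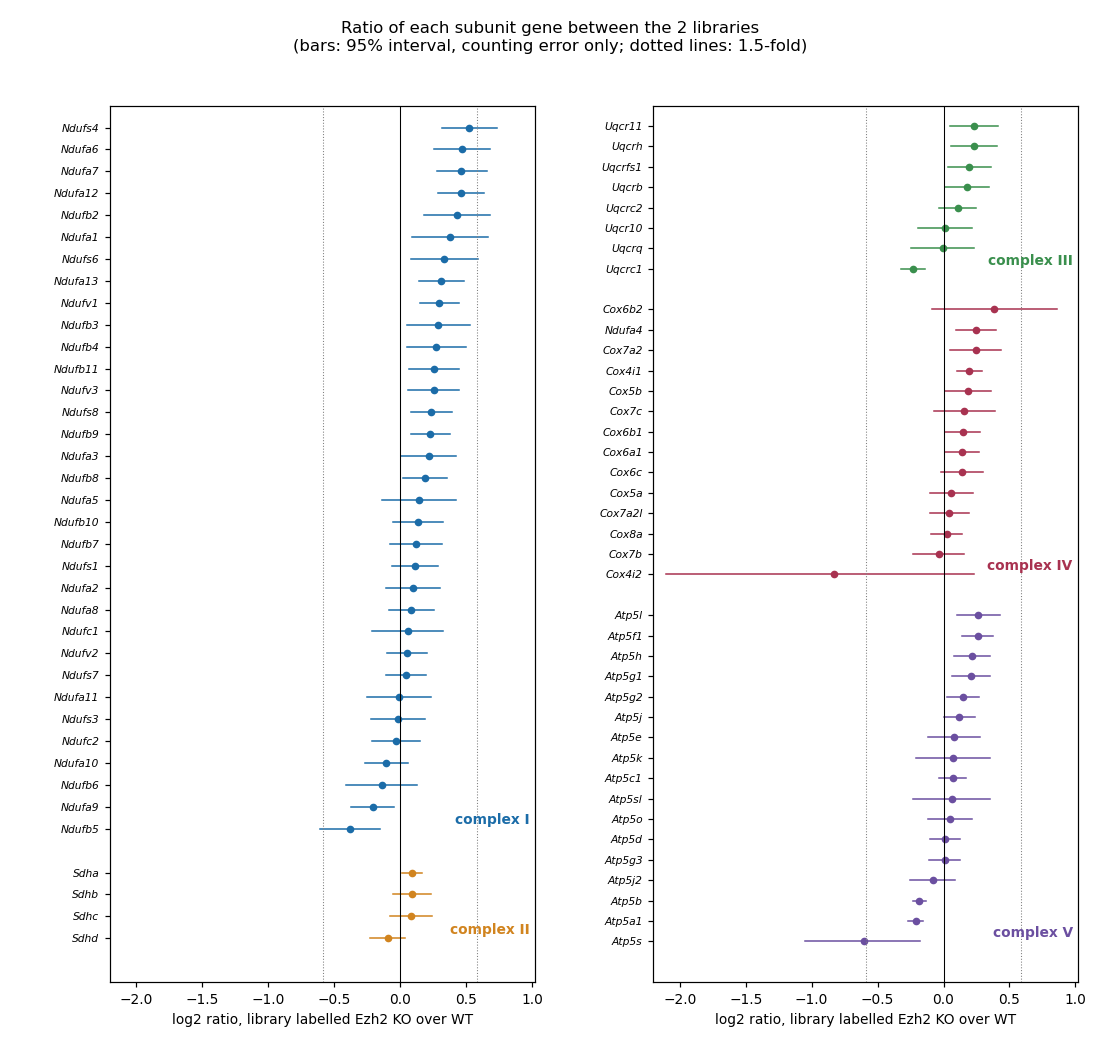
Log2 ratio (x axis, library labelled Ezh2 KO over WT) of 76 of the 77 members tested, 1 gene per line, grouped and coloured by complex, with points for the ratio and bars for its 95% counting interval; dotted lines mark 1.5-fold. Most points lie between 0 and 0.52, and Cox4i2 and Atp5s are the 2 beyond 1.5-fold on the left; the bar of Cox4i2, at 25 and 10 counts, is the widest.

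Complex I, the NADH dehydrogenase and main entry of electrons, showed the highest median of the 5 complexes in these libraries. Of 34 members tested, 17 had an interval above 0 and 2 below, and the median ratio was 0.16. Interval counts of this and the other complexes stand beside 19.2% above and 20.8% below among all genes tested. Summed normalised counts were 15072 and 16770, a log2 ratio of 0.15 (0.12 to 0.19). The upper end was held by supernumerary subunits. Ndufs4 (chr13:114287795-114388258), a subunit of the matrix arm whose loss causes Leigh-like disease, had 315.8 and 454.5 normalised counts (log2 ratio 0.52, 0.32 to 0.73). It was the highest ratio among all members whose normalised counts averaged 100 or more. Ndufa6 had 316.7 and 438.2 (0.47, 0.26 to 0.68), and no 61-base stretch of Ndufs4 or Ndufa6 occurs in an annotated transcript of another gene. Ndufa7 with 390.5 and 539.5 and Ndufa12 with 460.8 and 636.3 had ratios of 0.47 and 0.46.

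The opposite end of complex I was Ndufb5 (chr3:32736990-32751566), a subunit of the membrane arm, with 372.4 and 286.7 normalised counts and a ratio of -0.38 (-0.61 to -0.15). Ndufa9, a matrix-arm subunit near the ubiquinone site, had 683.9 and 593.1 (-0.21, -0.37 to -0.04). These were the 2 complex I members with an interval below 0. Supernumerary subunits as a class had 15 of 27 intervals above 0, 2 below and a median of 0.22. The 7 core subunits had 2 above, 0 below and a median of 0.05. Among all genes tested, 19.2% lay above 0 and 20.8% below. The 2 classes also differ in length, with median exon lengths of 732 bases for supernumerary and 1623 for core subunits. Ratios in these libraries moved with transcript length, as given below, and the part of length in this difference was not tested.

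The core subunits line the path of electrons from NADH to ubiquinone. Ndufv1, which binds FMN and NADH, was the core subunit of complex I with the highest ratio, at 671.1 and 825.0 normalised counts (0.30, 0.15 to 0.45). Ndufs8, an iron-sulfur subunit of the peripheral arm, had 620.4 and 731.8 (0.24, 0.08 to 0.39). The next 4 core subunits differed by less than their counting error. Ndufs1, the large iron-sulfur subunit, had 533.8 and 578.0, and Ndufv2 had 691.7 and 716.7. Ndufs7, beside the ubiquinone site, had 706.3 and 729.5, and Ndufs3 had 410.2 and 405.5. Their ratios ran from -0.02 for Ndufs3 to 0.11 for Ndufs1. Ndufv1 and Ndufb9, the latter with 682.2 and 800.6, were among the 3 most abundant complex I members by mean normalised count.

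Ndufs5 stood apart, being listed at 0 counts in both libraries although its product is a structural subunit of complex I. Counts of 0 allow up to 0.521 and 0.722 CPM. Of its 61-base stretches, 19.0% also occur in a transcript of BC002163, which had 2 and 3 counts. The cause of the 0 was not tested.

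To show the sequence around the start of the highest and the lowest complex I member whose normalised counts averaged 100 or more, their promoter windows are printed from the RefSeq table for GRCm38.p6, 250 bases before to 50 after the annotated start, 5′ to 3′. Capitals mark matches to ATGGCGGC, the letters used here as a YY1 core.
Ndufs4, chr13:114388045-114388344, minus strand: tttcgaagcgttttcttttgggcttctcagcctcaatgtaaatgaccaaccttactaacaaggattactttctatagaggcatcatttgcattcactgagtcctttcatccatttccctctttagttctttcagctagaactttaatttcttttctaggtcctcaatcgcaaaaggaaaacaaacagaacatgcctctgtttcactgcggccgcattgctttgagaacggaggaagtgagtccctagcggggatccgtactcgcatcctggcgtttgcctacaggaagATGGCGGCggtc
Ndufb5, chr3:32736813-32737112, plus strand: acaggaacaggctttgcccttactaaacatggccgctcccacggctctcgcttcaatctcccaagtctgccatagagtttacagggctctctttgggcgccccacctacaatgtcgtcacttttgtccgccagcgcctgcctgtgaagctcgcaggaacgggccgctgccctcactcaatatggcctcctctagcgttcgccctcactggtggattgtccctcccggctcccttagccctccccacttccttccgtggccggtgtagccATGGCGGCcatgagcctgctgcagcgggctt
The ratios of 0.52 and -0.38 thus came from genes with the same 8 letters just after their start. In both windows the match begins on the annotated start codon, so its letters are also the first coding bases.

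Complex II, succinate dehydrogenase, is the one complex encoded by nuclear genes alone and is also an enzyme of the tricarboxylic acid cycle. Its 4 genes were nearly equal between the libraries, with 1 interval above 0, none below and a median of 0.09. Sdha, the flavoprotein that oxidises succinate, had 2745 and 2928 normalised counts (0.09, 0.02 to 0.17). It made up 53.5% and 54.8% of the counts of the complex. Sdhb, the iron-sulfur subunit, had 803.2 and 855.3 (0.09, -0.05 to 0.23), Sdhc 635.9 and 672.4 (0.08, -0.08 to 0.24) and Sdhd 944.8 and 884.5 (-0.10, -0.23 to 0.04), the last pair being the membrane anchors. The summed counts of 5129 and 5341 gave a log2 ratio of 0.06 (0.002 to 0.11).

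In complex III, the cytochrome bc1 complex, 1 abundant subunit went against the rest. Uqcrc1 (chr9:108936633-108949623), core protein 1, had 2188 and 1867 normalised counts (-0.23, -0.32 to -0.14). It held 37.7% and 31.8% of the counts of the complex. Of the other 7 genes, 4 had an interval above 0: Uqcr11 with 466.8 and 547.7 (0.23, 0.05 to 0.41), Uqcrh with 500.3 and 586.1 (0.23, 0.05 to 0.40), Uqcrfs1, the Rieske iron-sulfur protein, with 569.8 and 652.6 (0.20, 0.03 to 0.36), and Uqcrb with 558.7 and 631.6 (0.18, 0.01 to 0.34). Uqcrc2, core protein 2 and the partner of Uqcrc1, had 822.1 and 885.6 (0.11, -0.03 to 0.25). The summed counts of complex III were 5803 and 5870, with a log2 ratio of 0.02 (-0.04 to 0.07). Without Uqcrc1 the sum had a ratio of 0.15 (0.08 to 0.21), so the near-equal sum rested on that gene. The median of the 8 genes was 0.14. Uqcr10 at 397.3 and 400.9 and Uqcrq at 299.5 and 298.3 hardly differed.

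**Figure D2:**
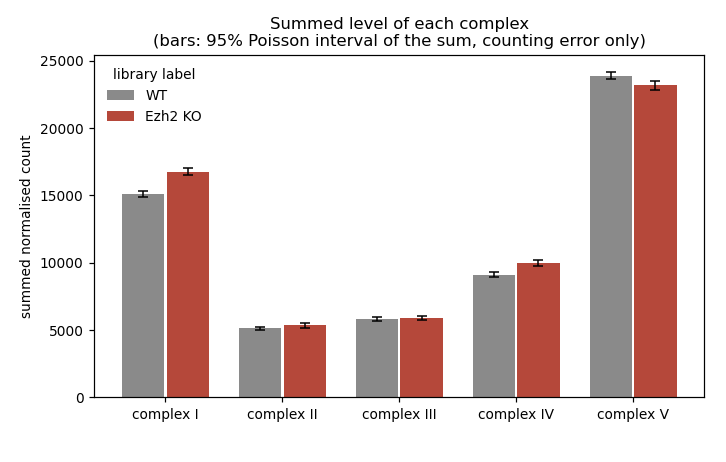
Summed normalised counts (y axis, from 0) of the tested members of each complex in the libraries labelled WT (grey) and labelled Ezh2 KO (red), with 95% Poisson intervals of the sum (counting error only). Complexes I and IV stand higher in the library labelled Ezh2 KO (16770 against 15072 and 9981 against 9110), complex V stands lower (23183 against 23908), and complexes II and III differ little.

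Complex IV, cytochrome c oxidase, is known for subunits that come as tissue isoforms. Of its 20 symbols, 14 were tested, 6 had an interval above 0 and none below, and the median ratio was 0.14. Sums of 9110 and 9981 normalised counts gave a log2 ratio of 0.13 (0.09 to 0.17). Cox4i1, the widespread form of subunit 4, led in abundance at 1673 and 1915 (0.19, 0.10 to 0.29). Cox8a followed with 1195 and 1215 (0.02, -0.09 to 0.14) and Cox6a1 with 952.5 and 1050 (0.14, 0.01 to 0.27). Ndufa4 had 659.1 and 783.1 (0.25, 0.10 to 0.40), the highest ratio of the complex among members whose normalised counts averaged 100 or more. Cox7a2, the liver-type form of subunit 7A, was close behind at 406.8 and 482.4 (0.25, 0.05 to 0.44). The lowest was Cox7b at 458.2 and 446.3 (-0.04, -0.23 to 0.15). Cox5a and Cox5b, the nuclear subunits next to the mitochondrially encoded core, had 609.3 and 635.1 (0.06, -0.10 to 0.22) and 527.8 and 600.1 (0.19, 0.01 to 0.36). Cox6b1 had 896.8 and 991.7 (0.14, 0.01 to 0.28), and Cox7a2l, a supercomplex assembly factor, 739.7 and 763.3 (0.05, -0.10 to 0.19).

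Isoform use was the ubiquitous or liver-type pattern in both libraries. Levels were set per kilobase of merged exon to compare genes. Cox4i1 made up 98.7% of the Cox4i1 and Cox4i2 level in WT and 99.4% in the other library. Cox4i2 (chr2:152754173-152765037), known from lung and from its link to oxygen supply, had 25 and 10 counts, or 21.5 and 11.7 normalised counts. Its ratio of -0.83 was beyond 1.5-fold, but its interval of -2.10 to 0.23 spanned 0. The heart and muscle isoforms Cox6a2 and Cox8b were listed at 0 in both libraries, as were the testis isoforms Cox7b2 and Cox8c and the Ndufa4 paralogue Ndufa4l2. Cox7a1, the heart and muscle form of subunit 7A, had 1 and 0 counts. Cox6b2, the testis form of subunit 6B, was the exception, with 79 and 76 counts and 6.65% and 7.76% of the subunit 6B level (0.38, -0.09 to 0.86). Counting error did not separate the 2 libraries for Cox6b2.

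Complex V, the ATP synthase, had the largest summed level, and its 2 catalytic subunits set the sum. Atp5b (chr10:128083273-128090391), the beta subunit of the catalytic head, had 7160 and 6303 normalised counts (-0.18, -0.23 to -0.13). Atp5a1, the alpha subunit, had 5360 and 4626 (-0.21, -0.27 to -0.15). Together they held 52.4% and 47.1% of the counts of the complex. The sum over 17 members was 23908 and 23183, a log2 ratio of -0.04 (-0.07 to -0.02). Without these 2 genes it was 11388 and 12253, a ratio of 0.11 (0.07 to 0.14), so the direction of the sum depended on them. The median over members was 0.07, with 6 intervals above 0 and 3 below.

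The other parts of the enzyme were ordered by role. In the central stalk, Atp5c1 (gamma) had 1467 and 1539 (0.07, -0.03 to 0.17), Atp5d (delta) 1230 and 1239 (0.01, -0.11 to 0.13) and Atp5e (epsilon) 423.1 and 447.5 (0.08, -0.12 to 0.28), all within counting error. In the peripheral stalk, which holds the head still against the rotor, Atp5f1 (subunit b) had 1102 and 1319 (0.26, 0.14 to 0.38), Atp5h (subunit d) 814.4 and 946.2 (0.22, 0.08 to 0.35) and Atp5j (subunit F6) 1154 and 1254 (0.12, 0.002 to 0.24). Atp5o, the OSCP subunit that joins stalk and head, had 586.1 and 606.0 (0.05, -0.12 to 0.21). Before any adjustment for length, the stalk subunits thus lay at or above 0 while the head subunits lay below it. After removal of the trend on length and GC content described below, several stalk subunits also lay below 0. These were Atp5d (-0.044), Atp5e (-0.019), Atp5j (-0.014) and Atp5o (-0.062), while Atp5c1, Atp5f1 and Atp5h stayed above 0. The adjusted value of Atp5o rests on the length and GC content of a matched record that may not be its own, as given below. Among the membrane subunits that hold dimers of the enzyme together, Atp5l (subunit g) had 551.8 and 663.1 (0.26, 0.10 to 0.43), the highest ratio of the complex, while Atp5k (subunit e) had 206.0 and 216.7 and Atp5j2 (subunit f) 593.8 and 560.5. Atp5s (chr12:69724950-69744660), a coupling-factor-like protein that is no structural subunit, had 139 and 67 counts, or 119.3 and 78.1 normalised counts. Its ratio of -0.61 (-1.05 to -0.18) was the lowest of the complex. Atp5sl, a complex I assembly protein despite its name, had 193.1 and 201.6.

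The rotor ring is made of copies of subunit c, for which the mouse has 3 genes on different chromosomes. Their products differ in the import signal, which is cut off. The last 75 codons of each are printed from the GENCODE M21 transcripts on GRCm38 to show that reads from this stretch can be told apart between the 3 genes although the encoded ring protein is the same. Capitals mark the 57 of 225 positions at which the 3 differ.
Atp5g1: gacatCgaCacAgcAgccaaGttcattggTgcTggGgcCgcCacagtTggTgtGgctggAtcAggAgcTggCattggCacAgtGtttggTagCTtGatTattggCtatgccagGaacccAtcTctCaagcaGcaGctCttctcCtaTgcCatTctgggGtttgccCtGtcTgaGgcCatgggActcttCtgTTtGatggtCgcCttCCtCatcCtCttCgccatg
Atp5g2: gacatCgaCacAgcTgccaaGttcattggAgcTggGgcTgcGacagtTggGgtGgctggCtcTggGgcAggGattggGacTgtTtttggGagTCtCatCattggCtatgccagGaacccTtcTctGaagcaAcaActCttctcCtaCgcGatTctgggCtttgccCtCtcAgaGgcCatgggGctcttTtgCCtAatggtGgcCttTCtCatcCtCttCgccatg
Atp5g3: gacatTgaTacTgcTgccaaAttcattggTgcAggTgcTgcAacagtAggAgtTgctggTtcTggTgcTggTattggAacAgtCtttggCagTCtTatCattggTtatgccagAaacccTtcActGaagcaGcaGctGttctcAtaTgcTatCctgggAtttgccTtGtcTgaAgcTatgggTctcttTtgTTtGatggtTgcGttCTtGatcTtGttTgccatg
These 75 codons gave 0 amino acid differences in any pair. Base identity was 84.9% between Atp5g1 and Atp5g2, 80.0% between Atp5g1 and Atp5g3 and 78.7% between Atp5g2 and Atp5g3. The longest shared run was 20 bases, shorter than the 61 sequencing cycles. Reads can still be shared with other gene copies, since 37.2% of the 61-base stretches of Atp5g2 occur in transcripts of other genes, most of them in Gm10175.

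Atp5g1 had 743.2 and 858.8 normalised counts (0.21, 0.07 to 0.35), Atp5g2 had 1035 and 1147 (0.15, 0.02 to 0.27) and Atp5g3 had 1170 and 1177 (0.01, -0.11 to 0.13). All 3 genes were thus in use in both libraries. Per kilobase of merged exon, Atp5g3 supplied 50.7% of the ring level in WT and 48.2% in the other library, Atp5g2 44.4% and 46.5%, and Atp5g1 4.88% and 5.33%. The merged exons of Atp5g1 measure 4778 bases because of a long annotated transcript, while its shortest coding transcript measures 596. Per kilobase of the shortest coding transcript, Atp5g1 had 1247 and 1441, Atp5g2 2347 and 2600, and Atp5g3 1638 and 1648 normalised counts. The order of the 3 genes therefore depended on which transcript was used.

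Compared per kilobase of merged exon over all complexes, Atp5b stood first, with 3737 and 3290 normalised counts per kilobase. Cox4i1 (2187 and 2503), Cox8a (2172 and 2210) and Atp5a1 (2169 and 1872) came next, and their order was not the same in both libraries. Cox6a1 (1668 and 1839) and Atp5g3 (1616 and 1626) followed. The 19 subunits listed here as core over all complexes had a median ratio of 0.07. Of them, 5 had an interval above 0 and 3 below, beside 19.2% and 20.8% of all genes tested. This list takes in Cox5a and Cox5b, which lie next to the mitochondrially encoded core of complex IV and are not part of it. It also takes in Uqcrc1 and Uqcrc2, which carry no cofactor, and lacks Cyc1, which the name rule does not take. Core here is thus not the same as the carriers of cofactors and catalytic sites. The sum of the 19, 28275 and 27231 normalised counts, gave -0.05 (-0.08 to -0.03), since it contains Atp5a1, Atp5b and Uqcrc1. Without these 3 genes, the sum over all the other members had a ratio of 0.13 (0.11 to 0.14), against 0.05 (0.03 to 0.07) with them.

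**Figure D3:**
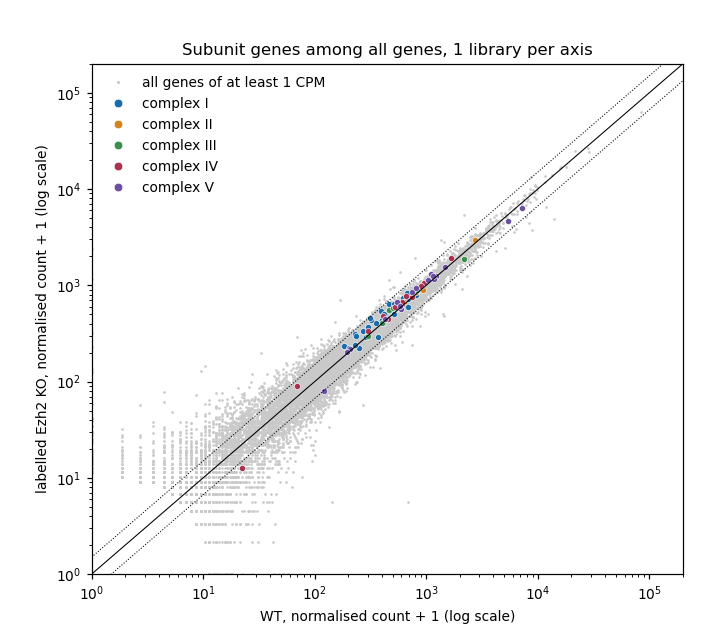
Normalised count plus 1 of WT (x axis, log scale) against the other library, labelled Ezh2 KO (y axis, log scale), for the 12588 genes of at least 1 CPM (grey) and the 77 members (coloured by complex); the solid line marks equal levels and the dotted lines 1.5-fold. Members follow the line of equal levels across their range, with Atp5b (7160 and 6303) and Atp5a1 (5360 and 4626) at the top just under it.

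Subunit genes are short, and ratios in these libraries moved with transcript length. The members had a median merged exon length of 861 bases, against 3054 over all genes tested. Among genes that are no members, the median ratio was 0.17 under 700 bases (229 genes), 0.12 from 700 to 1000 (474 genes), 0.05 from 1000 to 1500 and 0.01 from 1500 to 2000. Above that it was -0.03 up to 3000, -0.03 up to 5000 and -0.02 beyond (2579 genes, no member). In the shortest class the 30 members had a median of 0.15 and in the next the 16 members had 0.14, which is close to other genes of that length. The 12 members from 1000 to 1500 bases had 0.01. Of the longer ones, 11 from 1500 to 2000 had 0.07 and 6 from 2000 to 3000 had 0.08. Across genes, the Spearman correlation of ratio and length was -0.24 over the 77 members and -0.07 over the 9639 genes of at least 10 CPM with a length, given as a description of the same 2 libraries. After a trend on length and GC content was removed, the median of the members was 0.03, with 45 of 77 above 0, and that of complex I was 0.11. Complexes II to V then had medians of 0.07, 0.05, 0.02 and -0.02. The number of members with an interval above 0 was 13 after this step, against 34 before, and 9 lay below, beside 19.3% and 20% (2513 of 12588) of all genes after the same step.

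**Figure D4:**
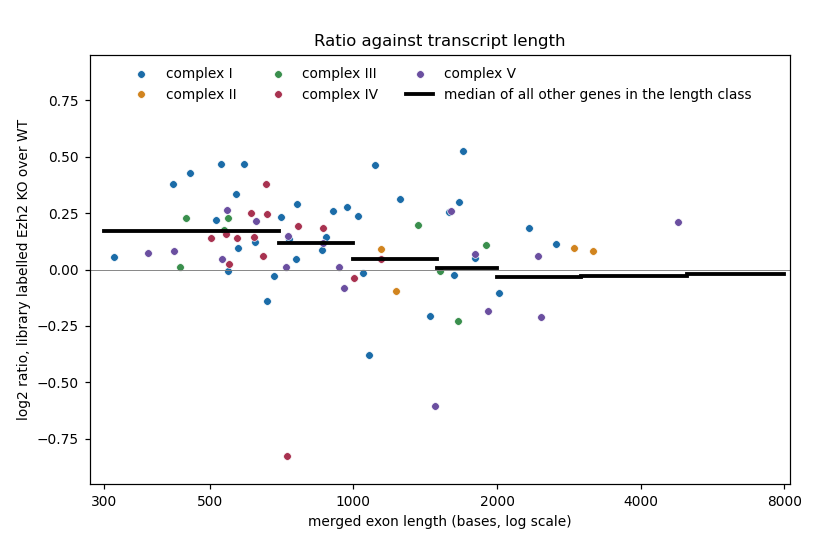
Log2 ratio (y axis, library labelled Ezh2 KO over WT) against merged exon length in bases (x axis, log scale) for the 77 members, coloured by complex; thick black lines give the median of all other genes in each length class. The black lines step from 0.17 under 700 bases to -0.03 between 2000 and 5000 and -0.02 beyond, and most members lie in the 2 shortest classes.

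Of the 3 members on the X chromosome, Ndufa1 had 181.1 and 235.4 normalised counts (0.38, 0.09 to 0.66) and Ndufb11 424.8 and 508.1 (0.26, 0.07 to 0.45), while Cox7b had the near-equal values given above. The dosage of X-linked genes cannot be told apart from the label. Without these 3 the median over members was 0.12. Shared sequence was a further limit. Of the 84 members, 42 shared no 61-base stretch with an annotated transcript of another gene, 20 shared over 10% and 2 over 50%. These 2 were Atp5l (82.4%, chiefly with Gm10221) and the record matched to Atp5o (87.2%, chiefly with Donson). That record spans chr16:91684398-91926982, and the Atp5o promoter window, chr16:91931581-91931880, lies outside it. Sharing, overlap, length and GC content given for Atp5o describe this record and may not be those of the gene counted. Of the 42 members without such stretches, all but Cox7a1, Cox7b2, Cox8b, Cox8c and Ndufa4l2 were tested. Among those tested, 13 had an interval above 0 and 2 below, and the median was 0.08. The shares over all genes tested were 19.2% above and 20.8% below. In the files, 24 of the 84 members overlap another gene, among them Atp5j with Gabpa, and the strand setting of the counting was not given in the sources used here.

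Regulators of mitochondrial genes, nuclear or mitochondrially encoded, were read from a list of 16, all tested. They had 4 intervals above 0, 2 below (19.2% and 20.8% of all genes tested) and a median of 0.10. The coactivators of mitochondrial biogenesis stood out in ratio but were low in level. Ppargc1a had 21 and 29 counts, or 18.0 and 33.8 normalised counts (0.87, 0.05 to 1.79), and Ppargc1b had 95.3 and 152.7 (0.67, 0.30 to 1.06). Their relative Pprc1 had 481.4 and 438.2 (-0.14, -0.33 to 0.06). Nrf1, a factor that binds many subunit promoters, had 422.2 and 337.9 (-0.32, -0.54 to -0.11). The subunits of the ETS factor GABP went both ways. Gabpa, which binds DNA, had 441.9 and 369.4 (-0.26, -0.47 to -0.05), Gabpb1 607.6 and 647.9 (0.09, -0.07 to 0.26) and Gabpb2 96.1 and 143.3 (0.57, 0.20 to 0.96). Myc, a growth factor-responsive activator, was the most abundant at 2638 and 3269 (0.31, 0.23 to 0.38). Yy1 had 163.0 and 153.8, and Esrra, a nuclear receptor, 128.7 and 150.3. The mitochondrial transcription factor Tfam had 365.6 and 396.2 (0.12, -0.09 to 0.33). The other 5 genes, Tfb1m, Tfb2m, Polrmt, Polg and Polg2, had intervals that spanned 0.

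Motif letters were counted in the promoter windows of 66 members, which have 71 windows of 300 bases, beside all 32851 windows in the table, on both strands. GCATGCGC, used here as an NRF1 core, was found in 14.1% of member windows and 2.71% of all windows. CCGGAAGT, an ETS core, was in 7.04% and 3.89%, ATGGCGGC, the YY1 core, in 9.86% and 2.24%, and TCAAGGTCA, an ERR core, in 2.82% and 0.42%. These shares describe the promoters alone and use no count of these libraries. Of the 6 genes with the YY1 letters, 5 (Ndufa9, Ndufb5, Ndufs4, Ndufs6 and Ndufs7) have them on a start codon. The median ratio was 0.12 for the 10 members with the NRF1 core and 0.14 for the 52 tested without it. It was 0.22 with the ETS core (5 members) against 0.14 without, 0.19 with the YY1 core (6 members) against 0.14, and -0.04 with the ERR core (2 members) against 0.14. No test of these differences was made.

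The windows of Ndufa6 and Uqcrc1 show that spread, since both hold the NRF1 letters. Capitals mark them, and in Uqcrc1 the letters occur on both strands at 2 bases' distance, as an overlapping palindrome of 10 letters.
Ndufa6, chr15:82354242-82354541, minus strand: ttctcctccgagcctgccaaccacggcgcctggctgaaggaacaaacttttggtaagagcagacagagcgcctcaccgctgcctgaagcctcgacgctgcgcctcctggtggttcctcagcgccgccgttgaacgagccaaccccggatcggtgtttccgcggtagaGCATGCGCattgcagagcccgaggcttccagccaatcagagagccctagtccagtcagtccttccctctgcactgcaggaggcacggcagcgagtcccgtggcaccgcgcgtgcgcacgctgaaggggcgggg
Uqcrc1, chr9:108936398-108936697, plus strand: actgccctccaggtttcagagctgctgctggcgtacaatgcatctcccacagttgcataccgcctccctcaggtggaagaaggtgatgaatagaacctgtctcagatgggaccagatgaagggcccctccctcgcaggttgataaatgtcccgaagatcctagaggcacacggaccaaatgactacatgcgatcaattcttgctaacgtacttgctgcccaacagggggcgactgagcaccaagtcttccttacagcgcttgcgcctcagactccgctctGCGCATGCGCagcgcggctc
Their ratios were 0.47 and -0.23.

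Other mitochondrial genes were read from lists for comparison. The counts of each list stand beside 19.2% of all genes tested with an interval above 0 and 20.8% below. Assembly factors of the complexes, with 47 tested, had 3 intervals above 0, 6 below and a median of 0.006. Among those whose normalised counts averaged 100 or more, they ran from Bcs1l, which inserts the Rieske protein into complex III, with 197.4 and 150.3 (-0.39, -0.72 to -0.08), to Pet100, a complex IV assembly factor, with 99.5 and 143.3 (0.52, 0.15 to 0.90). Just under that level, Sco1, a copper chaperone of complex IV, had 132.2 and 62.9 (-1.06, -1.55 to -0.61). It and Ndufaf5, with 68.7 and 44.3, were the 2 of 47 at least 1.5-fold lower. Genes of electron carriers, of ubiquinone synthesis and of the electron-transfer flavoprotein, with 16 tested, had 4 above, 3 below and a median of 0.14. There Coq4, needed for ubiquinone synthesis, had 166.5 and 120.0 (-0.47, -0.83 to -0.12) and Etfb 1104 and 1320 (0.26, 0.14 to 0.37). Cyc1, the cytochrome c1 subunit of complex III that the name rule does not take, had 651.3 and 726.0 (0.16, 0.001 to 0.31). Tricarboxylic acid cycle and pyruvate dehydrogenase genes, with 17 tested, had 2 above, 4 below and a median of -0.06. Dlat, the acetyltransferase of pyruvate dehydrogenase, had 404.2 and 292.5 (-0.47, -0.69 to -0.24), and Idh3g, on the X chromosome, 859.9 and 1046 (0.28, 0.15 to 0.41). The 77 mitochondrial ribosomal protein genes had 17 above, 9 below and a median of 0.04, from Mrpl2 with 376.7 and 245.9 (-0.61) to Mrpl55 with 129.6 and 201.6 (0.63). The 83 cytosolic ribosomal protein genes tested, also short at a median of 835 bases, had 52 above, 3 below and a median of 0.11. The lists differ in transcript length, with a median of 861 bases for the members, 1749 for the assembly factors and 2544 for the tricarboxylic acid cycle list. After the length and GC trend was removed, the medians were 0.03 for the members, -0.002 for the assembly factors and -0.03 for the cycle list. No test of differences between lists was made.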

How the data were processed

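RNA was measured in 1 library labelled WT and 1 labelled Ezh2 KO, both of sorted HSCs, grouped by the genotype in the labels. The deposited files hold raw read counts by gene symbol, deposited without normalisation by the authors. Per the labels, RNA was reverse transcribed and amplified with a SMARTer kit, sheared and given 8 cycles of library amplification, and sequenced for 61 cycles. The submitters' processing notes name the build mm10, TopHat2 2.0.13, Bowtie2 2.1.0, StringTie, edgeR and bedtools. The annotation, counting program and strand setting were not given in the sources used here. PCR duplicates and the amplification of short cDNA can shift counts, and reads with more than 1 alignment stand in an entry of their own, apart from the genes.

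The 5 last entries of each file, which name no gene, were left out. Reads without a gene were 44.9% of all entries in WT and 44.1% in the other library, and ambiguous reads 0.532% and 0.539%. Counts were divided by DESeq2 1.42.0 median-of-ratios size factors (1.17 and 0.858) in R 4.3.3. Ratios used a pseudocount of 1, genes with a mean of at least 1 CPM, and exact Clopper-Pearson intervals from scipy 1.17.1 (Python 3.11.15, numpy 2.4.6, pandas 2.3.3, matplotlib 3.10.9). Sums are over raw counts of the members tested. No quasi-likelihood or Wald test was fitted, as each group has 1 library. TMM factors came from edgeR 4.0.16. The interval step was tested on simulated data.

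Positions, merged exon lengths and transcripts came from GENCODE M21 on GRCm38, matching 24027 of 24421 symbols and all 84 members. The length and GC trend was taken as medians of 20 bins each. The genes named are Ezh2, the 3 most abundant members of each complex and its highest and lowest ratio among means of at least 100 normalised counts, members past 1.5-fold, core subunits, isoforms, members on X or at 0, the regulators, and the extremes of each mitochondrial list. Other genes named in passing (Slamf1 and other markers, Sco1, Ndufaf5, Cyc1, Ndufa6, Ndufa7, Ndufa12, Ndufa9, the remaining complex III and V subunits) were chosen after their values were seen. Members and lists were chosen with earlier results of these data known. Alternatives were another scaling, pseudocount, filter, threshold and interval, thinning, trend removal and subsets of the members. For 1 member and 1 marker gene, single values are not reported here.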

Additional observations from a re-analysis of the deposited data

Results flagged for a closer look

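Reads with more than 1 alignment lie outside the counts per gene. They made up 12.3% of all entries in the library labelled Ezh2 KO (95% Wilson interval 12.25% to 12.29%). In the WT control they made up 10.7% (10.73% to 10.77%). The share was thus above that of the control, in data that no comparison of the report uses. Of the 84 members, 42 share stretches of read length with transcripts of other genes, and the part of such reads in their ratios was not tested.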

How the results depend on the processing

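No paired analysis was possible because there was 1 library in each group, so that nothing could be left out or blocked. Of 175 recomputed values of the counts, medians and sums, 154 stayed within their error or within 1.5 times of the main count. Members at least 1.5-fold lower numbered 2, and 1 under total-count scaling, a pseudocount of 5, the thinned WT library, a mean of at least 10 CPM or structural subunits alone, and 0 at 2-fold. At a difference of 25%, 8 members were higher and 3 lower. Intervals above 0 numbered 34, 19 with 99% intervals, 13 after removal of the length and GC trend, and 13 among members without shared stretches, where 2 instead of 6 lay below, fewer genes being tested. Total-count scaling moved the median of all genes from -0.003 to 0.03, the summed log2 ratio of complex V from -0.04 to -0.015 and that of all complexes from 0.05 to 0.081. Trend removal gave summed ratios of 0.084 for complex I, -0.051 for complex III, 0.0017 for complex IV and -0.0012 for all complexes. The sums of complex III and of all complexes thus changed sign, as did the complex V median (0.07 to -0.02) and the ratio of Atp5j (0.12 to -0.014). The cause was not tested. In alternatives chosen after seeing the data, the sum of all complexes was 0.079 among members without shared stretches. Without Atp5a1, Atp5b and Uqcrc1 it was 0.13, with complex III at 0.15 and complex V at 0.11, reversed because its 2 most abundant genes were gone. Among 703 values of single genes and lists, 695 stayed within their error, and 24 genes or lists near 0 changed sign in some alternative. Depth limits single genes: Ndufs4, with 368 and 390 counts, had an interval from 0.32 to 0.73.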
